A study of Homo sapiens with 16 samples.

Results

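The members described here are the 300 strongest pairs of 500 kb bins on different autosomes in K562 cells digested for 12 h. They were taken from 12551999 ranked pairs, of 15779879 possible between the 22 autosomes. Pairs were ranked by the summed balanced signal of the 12 h libraries in the second sequencing run. Pairs joining any of chromosomes 9, 13 and 22 to each other, and bins within 3 Mb of the longest stretch of absent bins on a chromosome, were left out, which kept 5172 of 5776 bins. The members were thus chosen by their 12 h signal, which is given below as a description only.

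K562 is an established human leukaemia cell line with a heavily rearranged karyotype. The cells of all groups were fixed with formaldehyde, and Hi-C was performed in nuclei after digestion with HindIII for 0.25, 1, 3 or 12 h, with 2 replicate libraries per time and no other treatment. The design text gives the aim of the time series as reaching the most accessible domain boundaries with short digestion. Each library was sequenced in 2 runs, and the second run, at 20 kb, was used unless the first is named. Nothing in the labels says whether replicates came from separate cultures, so their spread may be technical.

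Hi-C ligates DNA ends that lie close together in the nucleus, and contacts are far more frequent within a chromosome than between chromosomes. Where a rearrangement joins parts of different chromosomes, the joined parts become neighbours on 1 molecule, and their contacts appear in the map as a block with a sharp corner at the join. Within such a block the signal falls with the distance from the corner, as it does along an ordinary chromosome.

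The second-run files held between 62777251 contacts in 0.25 h replicate 2 and 176412222 in 12 h replicate 1. The share of autosomal signal that joined different autosomes was 10.9% and 11.4% after 0.25 h, 11.3% and 11.6% after 1 h, 11.3% and 11.8% after 3 h, and 12.3% and 12.6% after 12 h. Depth and this share were both highest after 12 h, and their part in the results below was not tested.

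The members were far above the level of ordinary pairs. Their summed 12 h signal ran from 2833 down to 143.86, against a mean of 2.77 and a median of 1.85 over all ranked pairs. The last members were 36.5 Mb on chromosome 3 with 86 Mb on chromosome 10 at 144.18, the start of chromosome 6 with 31.5 Mb on chromosome 16 at 144.06, and 141.5 Mb on chromosome 6 with 24.5 Mb on chromosome 18 at 143.86. The first pairs left out had 143.78, 143.66 and 143.56. In the 6 libraries of 0.25, 1 and 3 h, which the ranking did not use, 286 of 300 members had at least 10 times the mean signal of their chromosome pair in every library. Among all ranked pairs 0.0148% did.

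When members at most 1 Mb apart on both chromosomes were joined, they formed 83 groups. Of these, 10 groups had 5 or more members and held 198 of them, 20 groups of 2 to 4 held 49, and 53 members stood alone. The members also differed in form at 20 kb. First, 37 members that joined bins both under 1 Mb from a chromosome end were set apart. In 221 of the rest the largest 20 kb pair held under 10% of the contacts of the 8 libraries, and these are called spread. In the other 42 it held 10% or more, and these are called concentrated. Of the 37 chromosome-end members, 24 also reached 10%. On few contacts this share is easily reached, as at 243 Mb on chromosome 2 with the start of 16, at 10% of 20 contacts. The median number of contacts after 12 h was 37 in chromosome-end, 57.5 in concentrated and 250 in spread members. Reaching 10% thus does not by itself show a concentrated form. The 10% limit and the 1 Mb limit were set after the values were seen. Of the spread members, 218 lay on 8 pairs of chromosomes: 6 with 16, 3 with 10, 12 with 21, 1 with 18, 1 with 16, 3 with 18, 2 with 22 and 6 with 18. The other 3, singled out after their values were seen, were 41.5 Mb on chromosome 17 with 19.5 Mb on chromosome 22, 79.5 Mb on 17 with 1 Mb on 19, and 196.5 Mb on 3 with the start of 19. The name of rearrangement junction was set beside these forms. Edges were sought in the 10 groups of 5 or more members and in a group of 4 on chromosomes 6 and 18, and an edge on both chromosomes was found in 10 of these 11 groups in the summed libraries. These sums include the 12 h libraries that chose the members, and the same search was not run on other members. Finding an edge is therefore a description and no test of the name. In the group of chromosomes 1 and 16 the edge on chromosome 1 was at the same place within 100 kb in only 3 of 8 libraries, and the signal ran as a strip across it, so this group goes against the form of a simple corner and is called a strip. The group of chromosomes 2 and 22 goes against it too, and is called a group only. Its signal rose from 1 to 2 Mb to 2 to 3 Mb from chr2:151740000 and chr22:22820001 in 8 of 8 libraries. Edges also lay at chr2:149340001 and chr22:23620000, and the class of 2 to 3 Mb lay toward these. Distance from them was not measured. The group of chromosomes 3 and 18 goes against it in part. Its signal fell less with distance from chr3:138280001 and chr18:23520001 than within a chromosome. A fall also lay at chr18:24920000, and distance from it was not measured. That group is called a corner only for its edges on both chromosomes. The chromosome-end members and 38 of the concentrated members lay outside the groups of 5 or more, so they are called by their form and not by that name.

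The strongest member joined 22.5 Mb on chromosome 12 to 25.5 Mb on chromosome 21. Values per library are given in parts per 1000000 of the signal between autosomes in that library (ppm). The signal of this pair was 77.6 and 70.4 ppm after 0.25 h, 82.0 and 72.7 after 1 h, 73.4 and 76.2 after 3 h, and 74.3 and 71.7 after 12 h. These 8 values overlapped across all 4 times and ranked between 1 and 4 among all pairs of each library. In the same libraries the pair had 357 to 421 times the mean of its chromosome pair. At 20 kb the signal rose at chr12:22700001 and at chr21:25500001, so the joined parts were chromosome 12 above the first position and chromosome 21 above the second, on build hg19. Both edges were found within 100 kb of these positions in 8 of 8 libraries. Of the mean signal in the 4 quadrants of 1 Mb around the corner, the joined quadrant held 99.3% ± 0.29 (SD, n = 8).

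The largest group joined chromosome 6 to chromosome 16, with 67 members from 38 to 42 Mb on chromosome 6 and from 78 to 85 Mb on chromosome 16. Its strongest pair, 38 Mb with 78.5 Mb, had 31.7 and 26.3 ppm after 0.25 h, 33.0 and 32.7 after 1 h, 31.7 and 34.0 after 3 h, and 34.0 and 32.6 after 12 h. Only replicate 2 of 0.25 h lay apart, below the other 7. The signal rose at chr6:38100001 and at chr16:78280001, and the joined quadrant held 98.1% ± 0.42 (SD, n = 8).

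A separate corner involved the same chromosomes. It had 15 members, led by 16.5 Mb on chromosome 6 with 85 Mb on chromosome 16 at 30.4 and 27.5 ppm after 0.25 h, 29.6 and 35.8 after 1 h, 29.9 and 29.9 after 3 h, and 30.5 and 28.7 after 12 h. Here the signal rose at chr6:16740001 but fell at chr16:85660000. The part of chromosome 16 between chr16:78280001 and chr16:85660000 thus had a corner with chromosome 6 at each of its ends. The joined quadrant of the second corner held 97.2% ± 0.66 (SD, n = 8).

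Chromosomes 3 and 10 gave 48 members. The strongest, 48 Mb with 87.5 Mb, had 50.02 and 49.9 ppm after 0.25 h, 46.7 and 52.3 after 1 h, 57.6 and 52.0 after 3 h, and 50.8 and 50.8 after 12 h. The signal fell at chr3:48240000 and chr10:87860000, so the joined parts lay below both positions, and the joined quadrant held 99.3% ± 0.42 (SD, n = 8). A further group of 18 members, led by 47.5 Mb with 81 Mb, lay deeper in the same quadrant. Its chromosome 3 edge was at chr3:48180000, and no edge of its own was found on chromosome 10. That leading pair had only 6.1 and 8.7 ppm after 0.25 h and 8.0 and 9.2 after 12 h.

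**Figure D1:**
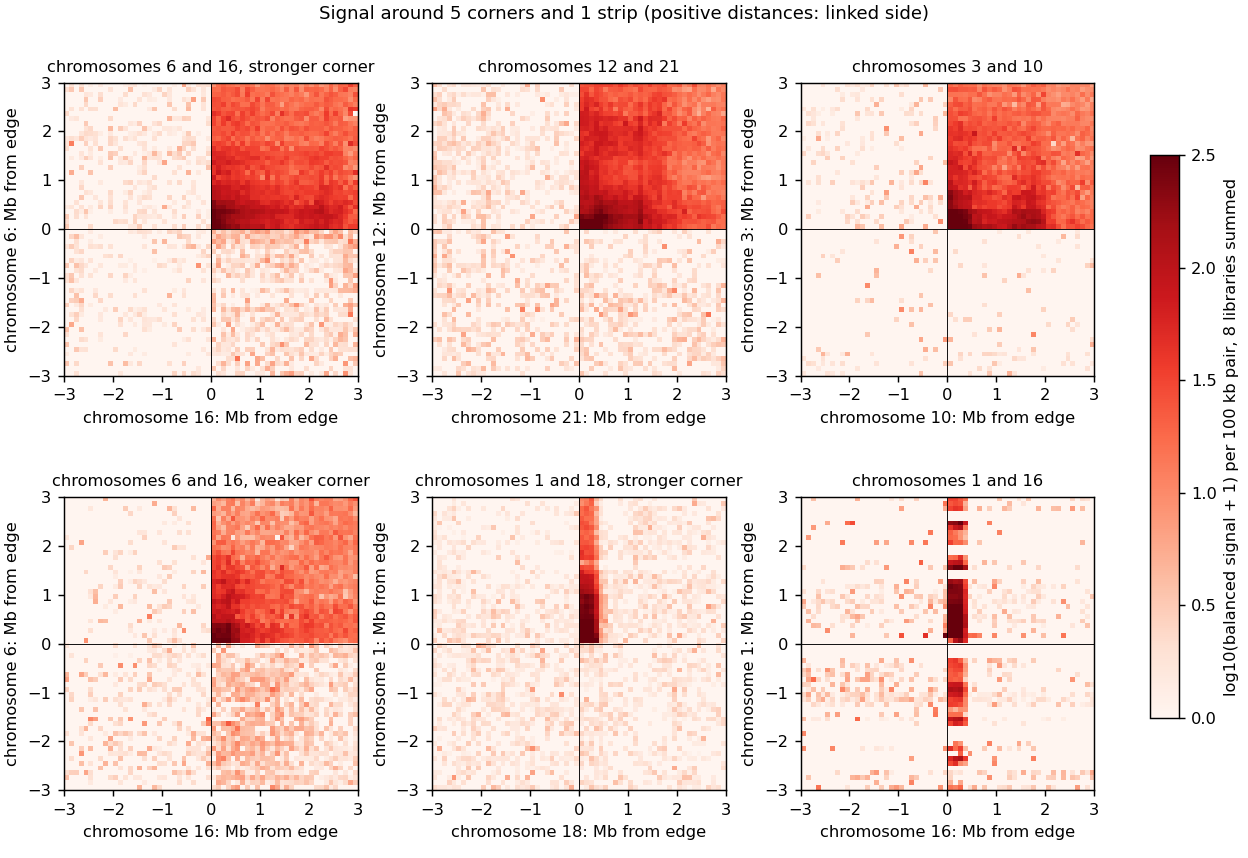
Balanced signal summed over the 8 second-run libraries in 100 kb pairs around 5 corners and 1 strip, as log10(signal + 1). Axes give the distance in Mb from the edge on each chromosome, with the joined side positive. The signal fills 1 quadrant at the first 4 corners, is held to 0.34 Mb of chromosome 18 at the fifth, and in the last panel forms a strip of 0.32 Mb on chromosome 16 that crosses the chromosome 1 edge.

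A short stretch of chromosome 18 had corners with parts of 3 other chromosomes. From left to right, chr18:21980001-23500000 was joined to chromosome 1 below chr1:55280000, chr18:23520001-24920000 to chromosome 3 above chr3:138280001, chr18:24560001-24920000 to chromosome 6 above chr6:135740001, and chr18:24760001-25100000 to chromosome 1 above chr1:107300001. The first and second stretches abutted to within 1 bin of 20 kb, the third lay inside the second, and the fourth overlapped both. All of these edges were found within 100 kb in 8 of 8 libraries.

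The 4 corners on chromosome 18 differed in strength. The pair of 107.5 Mb on chromosome 1 with 24.5 Mb on chromosome 18 had 36.0 and 34.4 ppm after 0.25 h, 38.8 and 38.5 after 1 h, 38.9 and 36.1 after 3 h, and 37.0 and 42.4 after 12 h. The pair of 55 Mb on chromosome 1 with 23 Mb had 23.5 and 19.5 after 0.25 h, 21.2 and 20.9 after 1 h, 22.01 and 20.9 after 3 h, and 20.6 and 22.7 after 12 h. The pair of 135.5 Mb on chromosome 6 with 24.5 Mb had 17.9 and 16.7 after 0.25 h, 16.6 and 15.6 after 1 h, 18.1 and 16.4 after 3 h, and 18.3 and 18.9 after 12 h. The order of these 3 pairs was the same in all 8 libraries, with no overlap between them. The fourth, 138.5 Mb on chromosome 3 with 23.5 Mb, was the weakest in every library, with 6.0 and 8.8 after 0.25 h and 7.4 and 7.5 after 12 h. Its joined quadrant held 89.9% ± 2.5, near the 90.0% ± 2.5 of the strip of chromosomes 1 and 16 (SD, n = 8). In the order given above, the other 3 corners held 99.5% ± 0.12, 93.3% ± 0.96 and 99.1% ± 0.24. A group of 3 members also joined chromosome 3 near 139 Mb to chromosome 18 near 7.5 Mb.

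Parts of other chromosomes joined to chromosome 18 were then compared with each other. The stretch joined to the lower part of chromosome 1, as bounded by its edges, overlapped none of the other stretches. Its signal did not end there, since just past chr18:23500000 it was 14.1 times the mean far from it, against 384 times inside. The 1.5 Mb of chromosome 1 above 107.5 Mb and the 1.5 Mb of chromosome 6 above 136 Mb had 8.38 ± 0.59 times the mean signal of chromosomes 1 and 6 (SD, n = 8), with 7.58 in the lowest library and 9.20 in the highest, on 938 contacts. The other 4 combinations were lower and varied more between libraries relative to their size. They rested on only 61 to 150 contacts each over the 8 libraries, and the part of such low counts in this spread was not tested. Chromosome 3 with chromosome 6 had 1.68 ± 0.55, the lower part of chromosome 1 with chromosome 3 had 1.75 ± 0.71, the lower part of chromosome 1 with chromosome 6 had 1.501 ± 0.30, and the upper part of chromosome 1 with chromosome 3 had 0.838 ± 0.51 (SD, n = 8 each).

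The last groups of 5 or more members departed from a simple corner. The group led by 146.5 Mb on chromosome 1 with 71 Mb on chromosome 16 had 14 members from 146 to 150.5 Mb on chromosome 1, with the signal held mainly to 1 strip at chr16:70880001-71200000. Its leading pair had 48.97 and 47.1 ppm after 0.25 h, 43.2 and 47.8 after 1 h, 48.8 and 47.3 after 3 h, and 47.8 and 48.01 after 12 h. Both edges of the strip on chromosome 16 were found within 100 kb in 8 of 8 libraries, but not the rise on chromosome 1. The group led by 151.5 Mb on chromosome 2 with 22.5 Mb on chromosome 22 had 6 members, between chr2:149340001-151740000 and chr22:22820001-23620000. Its leading pair had 10.7 and 9.9 ppm after 0.25 h and 8.5 and 8.9 after 12 h, and the joined quadrant held 71.7% ± 2.5 (SD, n = 8), the lowest share of the 10 groups measured. The fall on chromosome 22 was found within 100 kb in 4 of 8 libraries. The leading pair is itself a concentrated member, with 12.6% of its contacts in 1 pair of 20 kb bins.

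The signal through each corner was set against the same-chromosome signal at the same distance, averaged over all autosomes of the same library. Distance was counted from the edge with the larger step on each chromosome, also where the joined part had an edge at either end. At the corner of chromosomes 12 and 21 the signal was 33.0% ± 1.1 of the same-chromosome signal at 0.2 to 0.5 Mb, 33.5% ± 1.1 at 1 to 2 Mb and 30.9% ± 0.88 at 3 to 5 Mb (SD, n = 8). The stronger corner of 6 and 16 had 26.1% ± 0.91 at 1 to 2 Mb, the corner of 3 and 10 had 26.8% ± 2.1, and the weaker corner of 6 and 16 had 16.7% ± 1.2 (SD, n = 8). From 0.2 to 5 Mb the mean share moved between 30.9% and 34.1% at 12 and 21, between 20.9% and 31.9% at the stronger corner of 6 and 16, between 25.4% and 35.8% at 3 and 10, and between 15.7% and 22.98% at the weaker corner of 6 and 16. The highest of these means was 1.10 times the lowest at 12 and 21, where the signal fell with distance much as it does within a chromosome. It was 1.53, 1.41 and 1.46 times the lowest at the other 3, with the share higher far from the corner than near it at the stronger corner of 6 and 16 and lower at the remaining ones.

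Of the corners on chromosome 18, the weaker one with chromosome 1 spanned a like range, 1.46 times from lowest to highest mean, and the other 3 spanned 1.96 to 3.44 times. The stronger corner with chromosome 1 had 49.96% ± 3.0 at 0.5 to 1 Mb and 17.5% ± 2.4 at 2 to 3 Mb (SD, n = 8). The weaker one had 9.88% ± 0.75 at 0.2 to 0.5 Mb and 13.3% ± 1.6 at 3 to 5 Mb, and the corner with chromosome 6 had 13.3% ± 0.82 and 20.1% ± 2.1 over the same classes (SD, n = 8). At the corner with chromosome 3 the share rose with distance, from 3.35% ± 0.20 at 0.2 to 0.5 Mb to 11.5% ± 0.99 at 3 to 5 Mb, so that its signal fell less with distance than within a chromosome (SD, n = 8). At the group of chromosomes 2 and 22 the share fell from 6.82% ± 0.64 at 0.2 to 0.5 Mb to 5.66% ± 0.60 at 0.5 to 1 Mb. It then rose to 22.8% ± 1.1 at 2 to 3 Mb, toward the edges at the other end of the group (SD, n = 8). At 3 to 5 Mb it was 34.5% ± 6.9, on only 55 pairs of 20 kb bins. The strip of chromosomes 1 and 16 stood alone, with 114% ± 12 at 0.2 to 0.5 Mb, 93.4% ± 4.0 at 0.5 to 1 Mb and 97.6% ± 5.4 at 1 to 2 Mb (SD, n = 8), about the level within a chromosome.

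**Figure D2:**
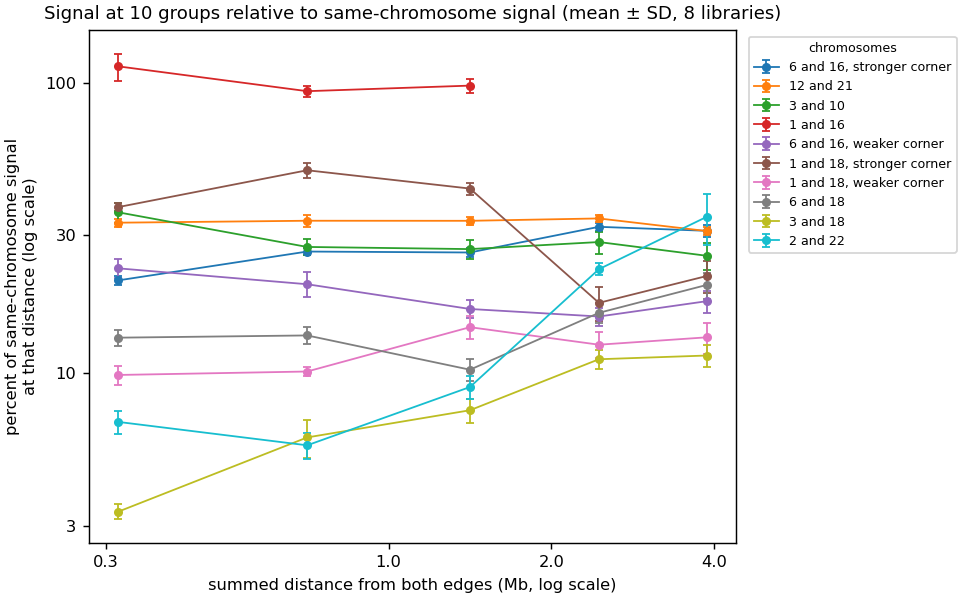
Signal at the 10 groups with edges on both chromosomes as a percentage of the same-chromosome signal at the same distance, against that distance, both on log scales. Distance is counted from the edge with the larger step on each chromosome. Points are means and bars SDs of 8 second-run libraries. The corner of chromosomes 12 and 21 stays near 33.0%, the strip of chromosomes 1 and 16 lies near 97.6%, and the line for 3 with 18 rises with distance, and that for 2 with 22 falls at first and then rises.

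These shares were also set out by digestion time. At 1 to 2 Mb the corner of 12 and 21 had 31.9% of the same-chromosome signal after 0.25 h, 33.8% after 1 h, 33.7% after 3 h and 34.5% after 12 h, with the 0.25 h libraries, at 31.8% and 32.03%, below the other 6. At 0.5 to 1 Mb the corner of 12 and 21 went the other way, with 34.8%, 34.1%, 33.5% and 31.7% at the same times. At 0.2 to 0.5 Mb it had 33.1% after 0.25 h and 31.8% after 12 h, so the direction there depends on the distance class. At 1 to 2 Mb the stronger corner of 6 and 16 had 26.2%, 26.1%, 26.0% and 25.9% at the same times. The corner of 3 and 10 had 27.1%, 28.3%, 27.6% and 24.0%, with the 12 h libraries, at 23.1% and 24.9%, below the other 6. At 3 to 5 Mb this corner had 28.7%, 25.8%, 25.5% and 21.7%, and its 0.25 h libraries, at 27.9% and 29.5%, lay above all others. Over the same class the stronger corner of 1 and 18 went from 25.2% after 0.25 h to 19.1% after 12 h, and the weaker corner of 6 and 16 from 19.3% to 15.8%. The corner of 3 and 18 went the other way, from 10.8% to 12.7%, and the stronger corner of 6 and 16 had 30.9% and 32.2%, with both 12 h libraries above the other 6. The group of 2 and 22 had 26.7% after 0.25 h and 39.9% after 1 h there, on 189 contacts in the 8 libraries. The 12 h values are those that chose the members.

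Coverage, the number of recovered contacts per 20 kb bin with contacts inside a bin left out, was compared on both sides of each edge over up to 1 Mb. Among 129763 edges between 20 kb bins of the autosomes, with 1 Mb taken on each side, 11.6% had a log2 ratio of 0.5 or more in either direction. Of the 20 edges of these 10 groups, 8 did. The joined side was shorter at chr16:70880001 (0.32 Mb), chr18:24560001 (0.36), chr18:25100000 (0.34) and chr22:22820001 (0.8). All but chr18:25100000 are among the 8, and at these edges the measure differs from that over all edges. The 20 edges are not independent, since 4 lie on the same stretch of chromosome 18. The SDs are over libraries of all 4 times, so they hold differences between times as well as between replicates. On chromosome 10 the joined side had 1.15 times the autosomal median and the other side 0.431, a log2 ratio of 1.42 ± 0.021 (SD, n = 8). On chromosome 3 at the same corner the levels were 0.855 and 0.379, a log2 ratio of 1.18 ± 0.042. On chromosome 12 they were 1.45 and 0.807, a log2 ratio of 0.84 ± 0.013. Steps as large as these were found at 0.737%, 1.29% and 3.42% of all edges.

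The strip on chromosome 16 had the widest step, from 1.60 inside to 0.429 on the other side of chr16:70880001, a log2 ratio of 1.90 ± 0.069 (SD, n = 8). Coverage was lower on the joined side at chr6:16740001 by a log2 ratio of -0.40 ± 0.052, at chr1:55280000 by -0.41 ± 0.099, and at chr18:23520001 by -0.16 ± 0.021 (SD, n = 8). The last of these abuts chr18:23500000, which is joined on its opposite side and had 0.18, so these 2 edges measure the same step. Over windows of up to 3 Mb the sign changed at 3 of the 20 edges. The ratio became 0.41 at chr18:23520001, -0.03 at chr18:23500000 and -0.02 at chr1:146140001, which had 0.57 over 1 Mb and is one of the 8 edges counted above. At chr6:135740001 the ratio was 0.03 ± 0.073, with 7 of 8 libraries higher, and over 3 Mb it was 0.34 ± 0.039, with 8 of 8 higher. Over 1 Mb the 12 h libraries, which chose the members, had 0.14 and 0.15 there, and the shorter times -0.07 to 0.02. Some other steps moved with time too. At chr1:55280000 the ratio was -0.52 and -0.50 after 0.25 h and -0.27 and -0.25 after 12 h. At chr18:25100000 it was 0.42 and 0.38, then 0.54 and 0.54. At chr12:22700001 it was 0.83 and 0.85, then 0.83 and 0.84. The wider window also moved chr16:85660000 from 0.41 to 1.17, chr22:22820001 from 0.64 to 1.21, chr10:87860000 from 1.42 to 0.91, chr1:55280000 from -0.41 to -0.16, chr6:16740001 from -0.40 to -0.26, chr16:78280001 from 0.34 to 0.19, chr6:38100001 from 0.16 to 0.25 and chr18:25100000 from 0.45 to 0.25, so the size of these steps depends on the window. The stretch of chromosome 22 at chr22:22820001-23620000 had the highest coverage of the 20 joined sides, 3.88 times the autosomal median against 2.49 on its other side.

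**Figure D3:**
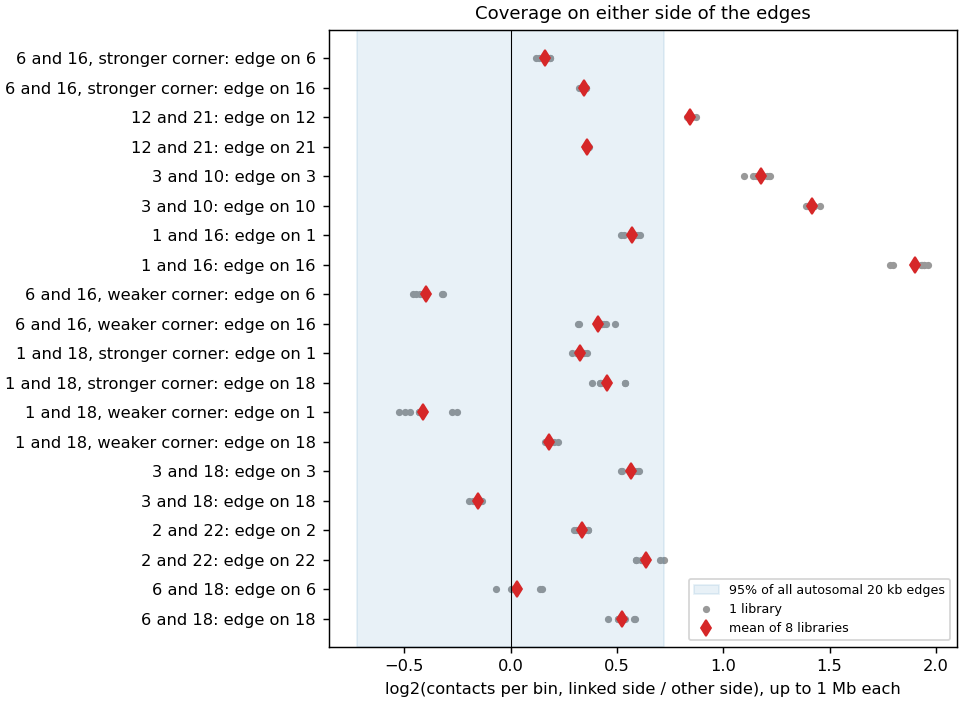
Log2 ratio of recovered contacts per 20 kb bin on the joined side over the other side of 20 edges of 10 groups, up to 1 Mb on each side. Grey points are the 8 second-run libraries, red diamonds their means, and the shaded band holds 95% of all autosomal edges, measured over 1 Mb on each side. The joined side was shorter at some of the 20 edges, such as 0.32 Mb at the strip on 16. The edges on 12, 3 and 10 and on 16 at the strip with chromosome 1 lie outside the band.

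Concentrated members were defined by the share of contacts in 1 pair of 20 kb bins, which had a median of 28.8%. Of these members, 32 of 42 stood alone in their group, against 9 of 221 spread members. The strongest, named after its values were seen, was 83.5 Mb on chromosome 1 with 76 Mb on chromosome 7. In it 469 of 2150 contacts over the 8 libraries fell on chr1:83820001-83840000 with chr7:76440001-76460000. It had 83.8 and 88.1 ppm after 0.25 h, 72.6 and 67.5 after 1 h, 70.4 and 76.8 after 3 h, and 38.8 and 43.2 after 12 h, so the 0.25 h libraries were above all others and the 12 h libraries below.

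The strongest member alone in its group was 128 Mb on chromosome 7 with 60.5 Mb on chromosome 17. It had 54.5 and 83.4 ppm after 0.25 h, 40.03 and 47.3 after 1 h, 43.0 and 36.7 after 3 h, and 18.6 and 24.2 after 12 h. Its largest 20 kb pair, chr7:128120001-128140000 with chr17:60500001-60520000, held 16.5% of its contacts. The bin at 114 Mb on chromosome 2 took part in 4 members, each with a bin at or near the end of another chromosome. This bin lies at the site where ancestral chromosome ends fused to form human chromosome 2. Its member with the start of chromosome 12 had 18.5 and 21.9 ppm after 0.25 h, 19.5 and 16.4 after 1 h, 15.4 and 13.6 after 3 h, and 12.3 and 10.7 after 12 h.

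The values over time of the kinds are a description, since the 12 h libraries chose the members and the 10% limit was set after the values were seen. The summed signal of the 42 concentrated members was 583 and 767 ppm after 0.25 h, 555 and 540 after 1 h, 535 and 516 after 3 h, and 320 and 331 after 12 h. The groups of times did not overlap, although the replicates of 0.25 h lay further apart than those of any other time. In the first run they did overlap, with 458 and 711 after 0.25 h, 602 and 476 after 1 h, 447 and 455 after 3 h, and 327 and 337 after 12 h, the last again the lowest. The 221 spread members had 2144 and 2017 after 0.25 h, 2090 and 2033 after 1 h, 2057 and 2017 after 3 h, and 2003 and 2007 after 12 h, and the 0.25 h and 3 h values overlapped. The share of recovered contacts that fell inside a 20 kb bin moved the same way as the concentrated members. It was 20.4% and 24.2% after 0.25 h, 18.9% and 19.3% after 1 h, 18.05% and 17.9% after 3 h, and 11.7% and 11.5% after 12 h, and its part in the result was not tested.

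**Figure D4:**
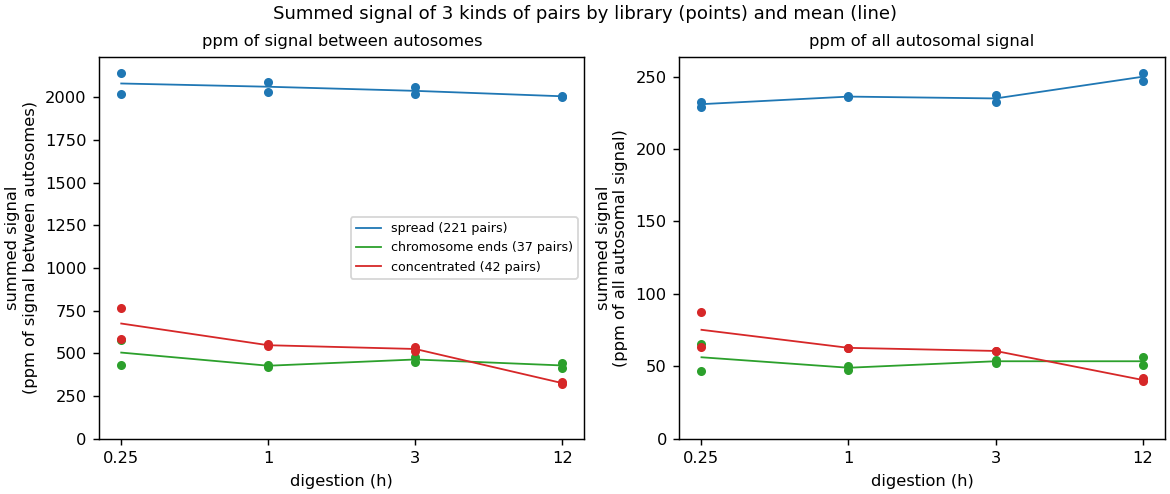
Summed signal of spread, chromosome-end and concentrated members by digestion time, in ppm of signal between autosomes on the left and of all autosomal signal on the right. Points are libraries and lines means of 2. On both scales the concentrated members are lowest after 12 h, with 320 and 331 ppm on the left, while the spread members lie between 2003 and 2144 there and are highest after 12 h on the right.

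Chromosome-end members rested on few contacts. The median was 37 recovered contacts in the 12 h libraries together, against 250 in spread members, and 9 of 37 had under 20. Balancing multiplies each contact by factors of its bins, so a sparsely covered bin can reach a high signal on few contacts. The strongest of them, the start of chromosome 12 with 62.5 Mb on chromosome 20, was an exception, with 517 contacts after 12 h and 71.4 and 67.7 ppm after 0.25 h, 62.7 and 66.4 after 1 h, 77.1 and 63.2 after 3 h, and 58.8 and 66.9 after 12 h.

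Other chromosome-end members varied widely between replicates. The pair of 0.5 Mb on chromosome 1 with 171 Mb on chromosome 6 had 12.7 and 41.0 ppm after 0.25 h, 46.1 and 41.3 after 1 h, 45.4 and 32.9 after 3 h, and 13.2 and 25.5 after 12 h. The starts of chromosomes 12 and 20 had 8.9 and 12.4 after 0.25 h, 12.2 and 4.4 after 1 h, 7.8 and 13.5 after 3 h, and 17.7 and 8.6 after 12 h. The start of chromosome 1 with 243 Mb on chromosome 2 had 11 contacts after 12 h, and its signal was 2.6 and 42.3 ppm after 0.25 h, 0 and 17.8 after 1 h, 26.3 and 24.5 after 3 h, and 12.5 and 10.1 after 12 h. The summed signal of all 37 was 434 and 575 after 0.25 h, 421 and 434 after 1 h, 481 and 447 after 3 h, and 412 and 446 after 12 h, with no steady order over time.

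All 300 members together held 0.316% and 0.336% of the signal between autosomes after 0.25 h, 0.307% and 0.301% after 1 h, 0.307% and 0.298% after 3 h, and 0.274% and 0.278% after 12 h. The 0.25 h libraries were above and the 12 h libraries below all others. Of all autosomal signal they held 0.0343% and 0.0382% after 0.25 h, 0.0347% and 0.0349% after 1 h, 0.0348% and 0.0350% after 3 h, and 0.0337% and 0.0351% after 12 h, where the times overlapped. The ratio of 0.25 h to 12 h was 1.18 on the first scale, 1.05 on the second and 1.04 for spread members alone on the first. For spread members the direction turned on the second scale, where the ratio was 0.924 and the 12 h libraries, at 247 and 253 ppm of all autosomal signal, lay above the other 6, at 229 to 237.

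The trend over digestion was tested in the 6 libraries of 0.25, 1 and 3 h, which had not chosen the members, as the slope of log2(ppm + 0.149) on log2 hours with limma. All 300 members were among the 81907 pairs tested. At an adjusted p under 0.05, 0 of 300 members and 0% of all pairs were called. At an unadjusted p under 0.05, 21 members and 4140 pairs, or 5.05%, passed, so the members' share was near that of all pairs. The median slope was -0.02 in the members and 0.04 in all pairs. In data simulated on these libraries, changed pairs were drawn from all 81907 tested pairs, with an assumed spread beyond counting noise. The test found 90 of 100 pairs with a slope of 1 and 3 of 100 with a slope of 0.5. Trends of 0.5 were thus mostly missed there. Members had more 12 h signal than the other pairs, so these shares do not give the size of trend detectable in members.

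The 10 members with the smallest p in this trend had an adjusted p of 0.893 in limma and included each kind. The smallest p was that of 129.5 Mb on chromosome 3 with 8 Mb on chromosome 12, a concentrated member, whose slope was -0.49 ± 0.090 (SE). Of the spread members, 39.5 Mb on chromosome 6 with 81 Mb on 16 had -0.32, 46.5 Mb on 3 with 75 Mb on 10 had -0.32, 38.5 Mb on 6 with 83 Mb on 16 had -0.23, 152 Mb on 1 with 71 Mb on 16 had -0.22, and 17.5 Mb on 6 with 85.5 Mb on 16 had 0.22. Of the concentrated members, 114 Mb on 2 with 51 Mb on 22 had -0.34, turning to 0.46 in the first run,, while 149 Mb on 1 with 87.5 Mb on 2 held 3 and 0 contacts after 0.25 h, so its slope depends on the pseudocount and is not given. Of the chromosome-end members, 0.5 Mb on 1 with 81 Mb on 17 had 0.35, and 243 Mb on 2 with 0.5 Mb on 7 held 0 contacts in the libraries of 0.25 and 1 h, so the size of its slope is set by the pseudocount and is not given.

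The difference between 0.25 and 12 h was fitted on all 8 libraries, and because the 12 h values chose the members it is a description for them. It called 25 pairs of 81907, or 0.0305%, with 23 (0.0281%) higher and 2 (0.00244%) lower after 0.25 h. Of the 300 members it called 3, of which 2 were higher and 1 lower after 0.25 h, and nothing is read from these counts. The member at 129.5 Mb on chromosome 3 and 8 Mb on chromosome 12 had 23.2 and 31.4 ppm after 0.25 h, 9.2 and 10.2 after 1 h, 7.3 and 8.9 after 3 h, and 4.5 and 4.0 after 12 h. The 0.25 h libraries were above all others, but in the first run the log2 difference of this member was -0.18, so the direction did not hold there. The member at 130 Mb on chromosome 11 and 77 Mb on chromosome 13, with 70.4% of its contacts in 1 pair of 20 kb bins, had 10.4 and 14.4 ppm after 0.25 h, 9.42 and 8.85 after 1 h, 7.64 and 8.13 after 3 h, and 3.78 and 3.98 after 12 h. The member at 243 Mb on chromosome 2 and 0.5 Mb on chromosome 7 was listed at 0 in the libraries of 0.25 and 1 h and had 2.79 and 4.25 ppm after 3 h and 3.02 and 5.46 after 12 h, on 3 to 5 contacts in each of these 4. The size of its difference is set by the pseudocount and is not given. No p-value is given for these members, since the 12 h values chose them. None of the 3 was called when any 1 library was left out.

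**Figure D5:**
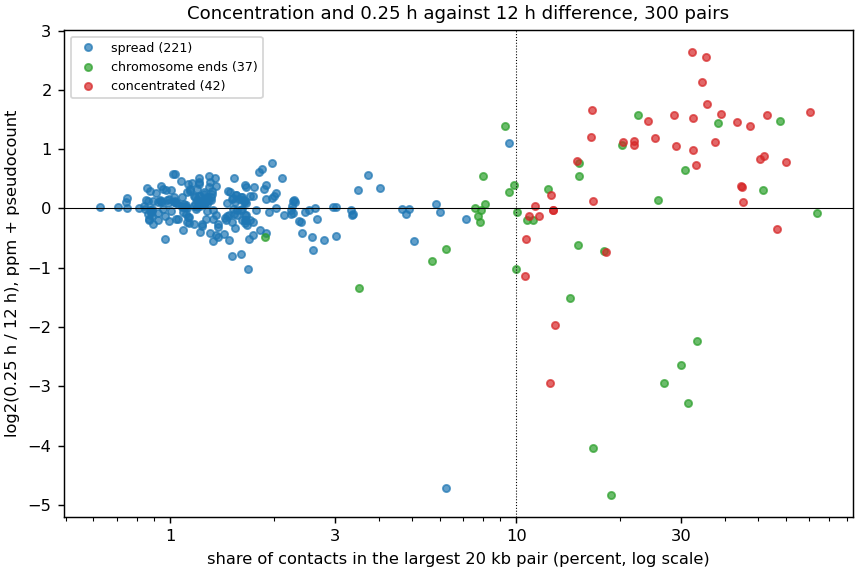
Log2 difference of 0.25 h over 12 h against the share of contacts in the largest 20 kb pair, on a log scale, for each of the 300 members by kind, with the 10% limit dotted. The 2 lowest points are members at 0 in both 0.25 h libraries, whose height is set by the pseudocount. Spread members lie around a median of 0.03, while 32 of 42 concentrated members lie above 0, with a median of 0.94.

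The 12 h values that chose the members enter this difference, so it is given by kind as a description and nothing is read from it. The median log2 difference was 0.94 in concentrated members, 0.03 in spread members and -0.07 in chromosome-end members, beside -0.28 over all pairs tested. Wherever the 2 members at 0 in both 0.25 h libraries are placed, the medians of the last 2 kinds stay at 0.03 and between -0.07 and -0.06. Of the concentrated members 32 of 42 were higher after 0.25 h, of the spread members 122 of 221, and of the chromosome-end members 16 of 37. In the first run the summed signal of the concentrated members after 0.25 h was 1.76 times that after 12 h, against 2.07 in the second run.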

How the data were processed

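Per the submitters' processing notes, reads were processed with HiC-Pro 2.11.1 and Bowtie2 2.3.4.1 on build hg19. The deposited files list pairs of bins with a signal that the authors had balanced, so that every bin of a file has the same total to within 0.00970%. The bins were 50 kb in the first run and 20 kb in the second, read from the highest bin numbers. The read filters were not given in the sources used here. A balanced signal is a contact count scaled by a factor of either bin. Pairs with 1 contact, 77.1% to 78.3% of those in a file, gave first estimates of these factors, which pairs with a few contacts then refined. All values came near whole contacts, within 0.01, a small set share of the count or the rounding of the deposited values, whichever was largest. At the highest counts this allowance is too wide to fail. On simulated matrices 100% of 554422 pairs were recovered.

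Signal was summed into 500 kb bins and expressed in parts per 1000000 of the signal between autosomes (ppm). Edges were the largest step of at least 4 times between neighbouring stretches of 10 bins of 20 kb, within 3 Mb of a group's peak. Pairs with a mean signal of at least 5 were tested with limma 3.58.1 in R 4.3.3, with a pseudocount of 1 unit of signal in the shallowest library (0.149 ppm) and Benjamini-Hochberg adjustment. Named pairs were the strongest of each group of 5 or more, the 5 strongest alone in a group, the 10 with the smallest trend p, those called between 0.25 and 12 h, and those at the threshold. Others were named outside these rules with their values known. Among them were the strongest chromosome-end member and the leading pair of the group of 4 on chromosomes 6 and 18. The members and lists were chosen with earlier results of these data known. PCR copies are not independent molecules. Other scripts used Python 3.11.15, numpy 2.4.6 and pandas 2.3.3. Genes are not named, because no hg19 annotation was used here.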

Additional observations from a re-analysis of the deposited data

How the results depend on the processing

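Of the alternatives tried, those for the share of signal and for the kinds of members were chosen after seeing the data. The trend called 0 pairs and 0 members under each alternative except recovered contacts, which called 3 pairs, all falling, and 1 member. The difference between 0.25 and 12 h, at 25 pairs and 3 members, was less stable. The fit called 3 pairs and 1 member with a pseudocount 4 times as large, 5 pairs and 4 members without the filter, and 124 pairs and 19 members on recovered contacts. Without the filter 11855426 pairs were tested, and 81907 in the other fits, with all 300 members in each. The 12 h values chose the members, so nothing is read from the member counts. In the first run the difference called 95 pairs, of which 3 were higher and 92 lower at 0.25 h, and 1 member, so the split between directions was opposite to that of the second run. Leaving out 1 library gave 0 to 1 pairs and 0 members. The replicate differences at different times correlated between -0.0065 and -0.00023. Pairs down to a mean signal of 5 entered, where counting noise can hide a correlation. Whether the replicate numbers pair the libraries was therefore not settled. With a replicate block the difference called 42 pairs and 9 members, and the trend 0 and 0. Of 162 refits of 13 named results, 160 kept their direction. These results were picked from the same data for a small p, and the refits reuse the same libraries. Kept directions are therefore no support for them. In the first run the difference at 129.5 Mb on chromosome 3 and 8 Mb on chromosome 12 was -0.18, and the slope at 114 Mb on chromosome 2 and 51 Mb on chromosome 22 was 0.46. The causes were not tested.

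There were 10 groups of 5 or more members, 17 when 600 pairs were taken, and 8 to 15 under the other choices. Recovered contacts chose 195 of the same 300 pairs, the first run 170 and the libraries of 0.25, 1 and 3 h 230. The share held by members at 0.25 h over 12 h was 1.18, and 1.14 to 1.22 without 1 library. It was 1.05 of all signal, 1.13 in the first run, 1.04 on recovered contacts, 1.39 for members chosen at 0.25, 1 and 3 h, and 1.04 for spread members. With limits of 5% and 20% in place of 10%, 48 and 27 members were concentrated. Depth limits the first run most, where a member had a median of 5 to 12 contacts per library.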
